A study of Homo sapiens with 9 samples.

Results

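The genes of sphingosine-1-phosphate metabolism were followed in HepG2, a human hepatocellular carcinoma line, in 3 groups of 3 RNA sequencing libraries: untreated controls, cells given eliglustat at 20 µM and cells given eliglustat at 30 µM, both for 72 h. Eliglustat inhibits glucosylceramide synthase, the enzyme encoded by UGCG that turns ceramide into glucosylceramide. The drug was dissolved in water, and the labels give neither a vehicle nor a time for the controls. The series' own text adds a further incubation after the drug, while the extraction text gives 72 h alone. The members were 8 genes, SPHK1, SPHK2, SGPL1, SGPP1, SGPP2, ACER2, ACER3 and ALDH3A2, matched by symbol to 8 of the 62703 gene identifiers in the count files. Of these, 7 had enough counts to be tested, and SGPP2 did not. All groups are 1 cell line. The labels do not state whether replicate libraries are separate cultures, so the tests rest on library-to-library spread that could be purely technical.

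Sphingosine-1-phosphate (S1P) is a signalling lipid and also the exit of all sphingolipid breakdown. Ceramidases release sphingosine from ceramide, sphingosine kinases phosphorylate it to S1P, and S1P phosphatases turn it back into sphingosine, which can be built into ceramide again. S1P lyase cuts S1P irreversibly into phosphoethanolamine and the fatty aldehyde hexadecenal, and fatty aldehyde dehydrogenase then oxidises that aldehyde so that it can enter fatty acid metabolism. Outside the cell, S1P travels bound to apolipoprotein M and albumin, both liver products, and acts on a family of G protein-coupled receptors.

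The libraries held between 21103757 and 26782810 counts in genes, and 17623 genes were tested. Levels are given as CPM, counts scaled to a common library total (TMM), and as mean ± SD over n = 3 libraries. Changes are log2 fold changes ± SE from edgeR quasi-likelihood, with p-values adjusted by Benjamini-Hochberg across the whole set of tested genes. The words rose and fell are kept for adjusted p-values under 0.05. CPM is a share of the RNA counted, so fewer cells and less RNA per cell cannot be told apart from these values. The share of records aligned to several places was 12.4% to 12.8% in controls, 13.3% to 15.5% at 20 µM and 14.8% to 19.4% at 30 µM, and its part in the results was not tested. All 10 hepatocyte and HepG2 markers had counts in every library, with summed levels of 31640 to 32610 CPM in controls, 35120 to 35570 CPM at 20 µM and 39550 to 39930 CPM at 30 µM. APOB alone was at 19950 CPM in controls, 21520 CPM at 20 µM and 27770 CPM at 30 µM. Gene by gene, 7 of the 10 markers rose and 2 fell at 20 µM against control, while at 30 µM 3 rose and 5 fell (ALB, AFP, FGB, GPC3 and HNF4A; median log2 of the list -0.14). Between the doses 2 rose and 7 fell. The summed levels of 4 leukocyte, 4 endothelial and 4 fibroblast markers stayed at or under 6.34 CPM in every library. The leukocyte gene PTPRC and the fibroblast gene COL1A2 were at 0 in all 9 libraries. The fibroblast and stellate list summed to 3.06 to 3.47 CPM at 30 µM, against 1.01 to 1.49 CPM in controls. Most of this was PDGFRB, at 3.01 CPM at 30 µM and 0.854 CPM in controls. COL1A1 was at 0.249 CPM at 30 µM and 0.378 CPM in controls, and LRAT was at 0 at 30 µM. In the endothelial list VWF rose at 30 µM against control (log2 2.57), while PECAM1 and CDH5 fell (-1.21 and -0.55). At 20 µM CDH5 rose (log2 0.68) and PECAM1 fell (-0.90). The part of these markers in the results was not tested. UGCG, the gene of the enzyme the drug inhibits, was at 23.7 ± 1.51 CPM in controls, 43.2 ± 2.90 CPM at 20 µM and 88.6 ± 3.93 CPM at 30 µM. These RNA levels do not measure inhibition of the enzyme.

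At 20 µM, SGPP1 rose 1.37-fold, SPHK2 1.17-fold and SPHK1 1.12-fold, while ALDH3A2 fell to 170.9 ± 4.43 CPM, against 201 ± 5.08 CPM in controls. At 30 µM, SGPP1 was 2.22-fold higher than in controls, ACER3 1.49-fold, SGPL1 1.25-fold and SPHK1 1.11-fold higher. The rise of SPHK1 depended on the scaling, as given below. SPHK2 was 1.61-fold lower at 30 µM than in controls, and ALDH3A2 fell by 33.3%. SPHK2 was therefore above its control level at the lower dose and below it at the higher dose. ACER2 was not past the test in any comparison, and SGPP2 had 2 counts in all, both in 1 library.

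Of the 7 genes tested, 3 rose and 1 fell at 20 µM against control, where 34.2% of all genes tested were past the test (17.2% higher, 16.9% lower). At 30 µM against control 4 rose and 2 fell, where 60.8% of all genes were past it (29.5% higher, 31.3% lower). Between the doses 3 rose and 2 fell, where 57% were past it (28% higher, 28.9% lower). With so few members these counts are descriptions and single out nothing about the pathway. The median log2 change of the 7 was 0.08 at 20 µM and 0.15 at 30 µM against control, beside 0.0087 and -0.036 over all genes tested, and between the doses it was 0.15 beside -0.029. The comparisons with control share the 3 control libraries, so they are not independent of each other. The libraries of the groups compared did not overlap for the 4, 6 and 5 genes past the test in the 3 comparisons, and this held for 44.5%, 65% and 61.1% of all genes tested.

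**Figure D1:**
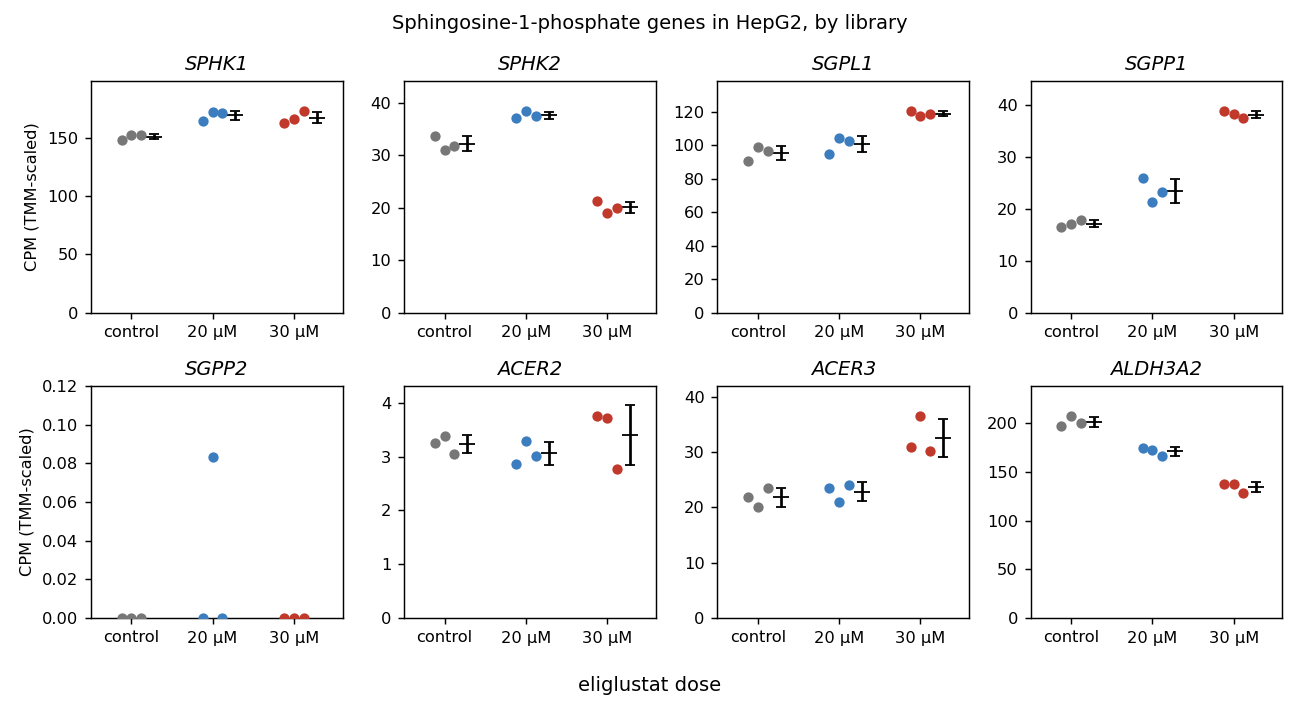
Level of each of the 8 genes in CPM (vertical axis, from 0, own scale per gene) in the 3 libraries of each group (points, control, 20 µM and 30 µM from left to right), with the group mean ± SD as a bar beside them for all genes but SGPP2. SGPP1 climbs over the doses and ALDH3A2 declines, SPHK2 is highest at 20 µM and lowest at 30 µM, and the points of ACER2 overlap between all groups.

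The 2 sphingosine kinases responded differently at the higher dose. SPHK1 makes S1P mainly in the cytosol and at the plasma membrane, while SPHK2 is found largely in the nucleus, at mitochondria and in the endoplasmic reticulum. SPHK1 had 148, 152 and 153 CPM in controls, 165, 172 and 171 CPM at 20 µM, and 163, 166 and 173 CPM at 30 µM. Every treated library lay above every control library, and the 20 µM and 30 µM libraries overlapped. Its log2 change was 0.16 ± 0.0363 at 20 µM (adjusted p = 0.000501) and 0.15 ± 0.0364 at 30 µM (adjusted p = 0.000726). Between the doses the log2 change was -0.02 with a 95% interval of -0.09 to 0.06 (adjusted p = 0.736).

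The small rise of SPHK1 at 30 µM depended on how the libraries were scaled. With library size alone in place of TMM, its log2 change at 30 µM against control was -0.06 (adjusted p = 0.126), and against 20 µM it was -0.21 (adjusted p = 5.68e-06). That scaling moved the median of all genes by -0.21 at 30 µM against control and by -0.19 between the doses, and gave 3530 genes higher and 8022 lower against control, beside 5192 and 5515 with TMM. Between the doses it gave 3029 higher and 7690 lower, beside 4942 and 5099 with TMM. Relative to the shifted median, SPHK1 remained on the higher side of the genes at 30 µM against control. With upper-quartile factors SPHK1 was lower at 30 µM than at 20 µM (log2 -0.09, adjusted p = 0.0288), and median-ratio factors changed no call of a member.

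SPHK2 had 33.7, 31.0 and 31.7 CPM in controls, 37.0, 38.3 and 37.4 CPM at 20 µM, and 21.2, 19.0 and 19.9 CPM at 30 µM. The 3 groups did not overlap, with the 20 µM libraries highest and the 30 µM libraries lowest. The log2 change was 0.22 ± 0.0593 at 20 µM against control (adjusted p = 0.00309) and -0.68 ± 0.0632 at 30 µM against control (adjusted p = 2.25e-11). Between the doses SPHK2 fell by 0.91 log2 units ± 0.0626 (adjusted p = 2.49e-14), to 20.0 ± 1.10 CPM at 30 µM, against 37.6 ± 0.682 CPM at 20 µM. This was the largest change of any member between the doses. Each of these calls and directions held under all 20 alternatives, including every scaling.

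Counts of the kinases can also be set against each other within a library, where the scaling cancels. Per base of exon, SPHK1 had 5.99 to 6.69 times the counts of SPHK2 in controls, 6.06 to 6.22 times at 20 µM and 10.5 to 11.9 times at 30 µM. Control and 20 µM libraries overlapped, and the 30 µM libraries stood apart. The ratio of SPHK1 to the lyase gene SGPL1 ran from 2.61 to 2.77 per base of exon in controls, from 2.80 to 2.94 at 20 µM and from 2.30 to 2.47 at 30 µM. The kinase thus stood highest against the lyase at 20 µM and lowest at 30 µM, with no overlap between the groups. These ratios are descriptions with no test, since their members were chosen with earlier results known.

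**Figure D2:**
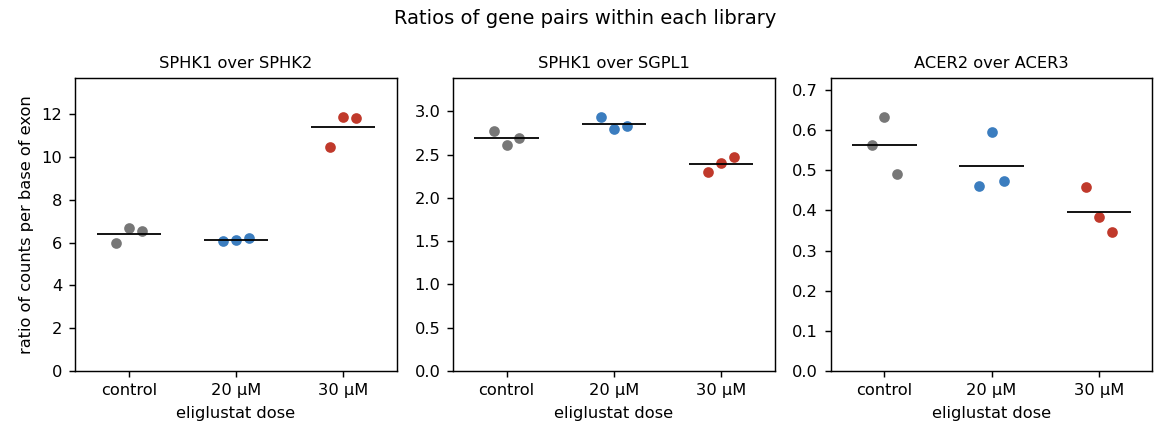
Ratio of counts per base of exon (vertical axes, from 0) between SPHK1 and SPHK2, SPHK1 and SGPL1, and ACER2 and ACER3 within each library (points), by dose, with the group mean as a line. The ratio of the kinases is 10.5 to 11.9 at 30 µM, against 5.99 to 6.69 in controls.

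The promoters of the kinases are shown because the kinases moved apart at 30 µM, and any part of their motifs in that was not tested. RefSeq promoter windows (GRCh38.p14), from 250 bases before to 50 after a transcript start, were given for 7 of the 8 members in 12 windows, with no entry for SGPP1. Printed below are the 250 bases before 2 of the 3 SPHK1 starts (the most upstream and the most downstream) and the upstream of the 2 SPHK2 starts, all on the plus strand, at chr17:76382954-76383203, chr17:76385028-76385277 and chr19:48619256-48619505. Capitals mark matches, on either strand, to the GC box GGGCGG, the AP-1 site TGANTCA, the E-box CACGTG, the cAMP response element core TGACG or the TATA box TATAAA.
SPHK1 upstream start: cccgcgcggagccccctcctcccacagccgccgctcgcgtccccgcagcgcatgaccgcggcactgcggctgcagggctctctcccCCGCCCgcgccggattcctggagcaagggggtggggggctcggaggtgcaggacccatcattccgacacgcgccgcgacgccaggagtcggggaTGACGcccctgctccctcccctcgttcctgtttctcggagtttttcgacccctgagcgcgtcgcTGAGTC
SPHK1 downstream start: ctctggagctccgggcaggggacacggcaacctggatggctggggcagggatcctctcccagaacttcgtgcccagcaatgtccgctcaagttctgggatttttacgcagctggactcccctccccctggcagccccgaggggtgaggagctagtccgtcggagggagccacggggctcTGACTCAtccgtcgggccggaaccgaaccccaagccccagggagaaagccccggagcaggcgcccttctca
SPHK2 upstream start: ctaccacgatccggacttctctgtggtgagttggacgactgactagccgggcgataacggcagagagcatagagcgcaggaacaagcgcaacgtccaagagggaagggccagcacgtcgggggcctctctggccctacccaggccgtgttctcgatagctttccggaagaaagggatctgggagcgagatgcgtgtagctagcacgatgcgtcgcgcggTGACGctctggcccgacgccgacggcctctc
The upstream SPHK1 window had a GC box, the TGACG core at -70 to -66 and an AP-1 match at -6 to 1, whose last letter is the start itself and lies outside the printed stretch. The downstream SPHK1 window had 1 AP-1 match, at -71 to -65. The upstream SPHK2 window had only the TGACG core, at -31 to -27. Of the windows not printed, the SPHK1 one had 2 GC boxes and no AP-1 match. The SPHK2 one had only a GC box, at -89 to -84. An AP-1 match was also in a window of SGPP2, at -63 to -57. Of 35116 such windows, 7.7% held the AP-1 letters, 24.6% the TGACG core and 45.0% the GC box, so none of these matches is rare enough to mark a site by itself. A TATA box match, present in 11.5% of windows, was in none of the 12 windows of the members.

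The S1P phosphatase gene SGPP1 had the largest rise among the members. Its product sits in the endoplasmic reticulum and returns S1P to sphingosine. SGPP1 had 16.5, 17.0 and 17.9 CPM in controls, 25.9, 21.2 and 23.1 CPM at 20 µM, and 38.75, 38.2 and 37.4 CPM at 30 µM. The groups rose in order of dose with no overlap, and the 20 µM libraries were the most spread. The log2 change was 0.45 ± 0.0715 at 20 µM (adjusted p = 4.98e-06) and 1.153 ± 0.0694 at 30 µM against control (adjusted p = 4.49e-16), and 0.70 ± 0.0674 between the doses (adjusted p = 8.07e-11). Over the 20 alternatives the change at 30 µM against control stayed between 0.94 and 1.18.

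The second S1P phosphatase gene, SGPP2, had 0, 0 and 0 counts in controls, 0, 2 and 0 counts at 20 µM, and 0, 0 and 0 counts at 30 µM. A library with 0 counts allows up to 3 counts, an allowance that covers counting error only. Over the 9 libraries this is 0.112 to 0.142 CPM, here by unscaled library totals and not by TMM. No difference could be detected at this depth, and counts near 0 can also depend on the annotation, which is not given in the sources used here. SGPP1 therefore accounted for nearly all counts of the phosphatase pair.

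SGPL1 encodes S1P lyase, an enzyme of the endoplasmic reticulum that removes S1P for good. It had 90.6, 99.0 and 96.2 CPM in controls, 94.9, 104 and 102.5 CPM at 20 µM, and 120.2, 117 and 118.5 CPM at 30 µM. Control and 20 µM libraries overlapped, and all 30 µM libraries lay above both. At 20 µM the log2 change was 0.08 with a 95% interval of -0.0089 to 0.17 (adjusted p = 0.166). That value was past the test without 20 µM replicate 1 (log2 0.12, adjusted p = 0.0417). At 30 µM SGPL1 rose by 0.32 ± 0.0427 log2 units against control (adjusted p = 7.79e-08) and by 0.24 ± 0.0427 against 20 µM (adjusted p = 1.24e-05). With library size alone the change against control was 0.11 (adjusted p = 0.027), and that between the doses was 0.05 and no longer past the test (adjusted p = 0.364).

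ALDH3A2, for the fatty aldehyde dehydrogenase that handles the aldehyde left by the lyase, fell with dose while SGPL1 rose at 30 µM. Loss of ALDH3A2 causes Sjögren-Larsson syndrome in people. It had 197, 207 and 200.4 CPM in controls, 174.5, 172 and 166 CPM at 20 µM, and 137, 137 and 128.5 CPM at 30 µM. The groups fell in order of dose with no overlap. The log2 change was -0.24 ± 0.0369 at 20 µM (adjusted p = 3.99e-06) and -0.58 ± 0.0374 at 30 µM against control (adjusted p = 2.36e-15), and -0.35 ± 0.0376 between the doses (adjusted p = 1.12e-09). All 3 calls held under the 20 alternatives.

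The second of 2 ALDH3A2 starts is shown for its E-box match, with capitals as above, at chr17:19648501-19648750 on the plus strand.
ALDH3A2 second start: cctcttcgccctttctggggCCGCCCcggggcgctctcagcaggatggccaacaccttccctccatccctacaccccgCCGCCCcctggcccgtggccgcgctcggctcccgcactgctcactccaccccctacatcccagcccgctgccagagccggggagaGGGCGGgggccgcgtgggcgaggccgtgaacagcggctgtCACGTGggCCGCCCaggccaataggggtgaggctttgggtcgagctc
It held 4 GC boxes and an E-box at -47 to -42. The E-box letters were in 7.3% of all windows, and in no other window of the members. The first ALDH3A2 window held none of the 5 motifs.

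**Figure D3:**
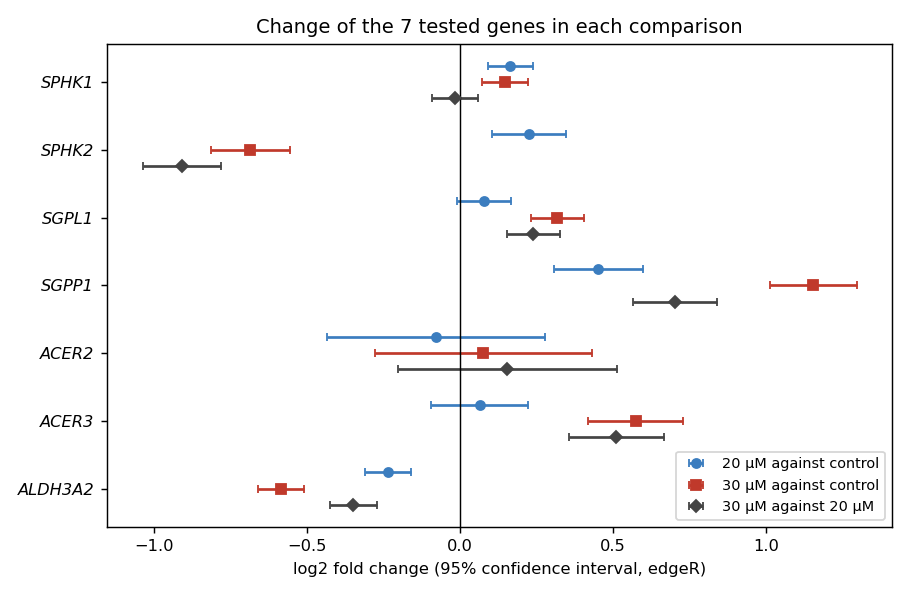
Log2 fold change (horizontal axis) of the 7 tested genes with 95% confidence intervals from edgeR, for 20 µM against control (circles), 30 µM against control (squares) and 30 µM against 20 µM (diamonds). The intervals of SGPP1 lie above 0 and those of ALDH3A2 below 0 in all 3 comparisons, SPHK2 has intervals on either side, and all 3 intervals of ACER2 span 0.

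The alkaline ceramidases ACER2 and ACER3 supply sphingosine to the kinases, ACER2 from the Golgi and ACER3 from the endoplasmic reticulum and Golgi. ACER3 had 21.8, 20.1 and 23.4 CPM in controls, 23.5, 20.9 and 24.0 CPM at 20 µM, and 30.9, 36.4 and 30.1 CPM at 30 µM. Control and 20 µM libraries overlapped, and the 30 µM libraries were all higher. ACER3 was not past the test at 20 µM (log2 0.06, 95% interval -0.09 to 0.22, adjusted p = 0.586). It rose by 0.57 ± 0.0759 log2 units at 30 µM against control (adjusted p = 9.91e-08) and by 0.51 ± 0.0758 against 20 µM (adjusted p = 9.69e-07).

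ACER2 had few counts, between 67 and 91 in a library. Its levels were 3.26, 3.38 and 3.05 CPM in controls, 2.87, 3.30 and 3.02 CPM at 20 µM, and 3.75, 3.71 and 2.77 CPM at 30 µM. All groups overlapped, and the lowest and highest libraries were both at 30 µM. The log2 change was -0.08 at 20 µM (95% interval -0.43 to 0.28, adjusted p = 0.788) and 0.08 at 30 µM against control (95% interval -0.28 to 0.43, adjusted p = 0.729). Per base of exon, ACER2 had 0.492 to 0.634 times the counts of ACER3 in controls, 0.460 to 0.596 times at 20 µM and 0.347 to 0.458 times at 30 µM.

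Levels can be compared between genes only per length, here as CPM per kilobase of all annotated exons of a gene in GENCODE 29. In controls the order was SPHK1 (34.2 ± 0.567), ALDH3A2 (31.2 ± 0.786), SGPL1 (12.7 ± 0.568), SPHK2 (5.35 ± 0.233), SGPP1 (5.17 ± 0.214), ACER3 (2.58 ± 0.197) and ACER2 (1.445 ± 0.0739), with SGPP2 at 0. Only the neighbours SPHK2 and SGPP1 overlapped, at 5.16 to 5.61 and 4.98 to 5.402 CPM per kilobase. At 20 µM SGPP1 (7.07 ± 0.705) stood above SPHK2 (6.25 ± 0.114), a gap that was within 2 SD of SGPP1. At 30 µM the order was SPHK1 (37.9 ± 1.13), ALDH3A2 (20.8 ± 0.769), SGPL1 (15.9 ± 0.189), SGPP1 (11.5 ± 0.203), ACER3 (3.85 ± 0.408), SPHK2 (3.33 ± 0.183) and ACER2 (1.52 ± 0.249). There ACER3 and SPHK2 did not overlap, at 3.57 to 4.31 and 3.17 to 3.53 CPM per kilobase, but lay closer together than 2 SD of ACER3. SPHK1 remained the most abundant of the 8 per length in all 3 groups, and SGPP1 moved to more than 3 times the level of SPHK2. The lead of SPHK1 over ALDH3A2 in controls rests on the length used, since by CPM alone ALDH3A2 stood higher (201 against 151).

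On GRCh38 with GENCODE 29, SPHK1 lies at chr17:76376584-76387860, SPHK2 at chr19:48619291-48630717, SGPL1 at chr10:70815961-70881173 and SGPP1 at chr14:63684214-63728039. SGPP2 lies at chr2:222424517-222560948, ACER2 at chr9:19409059-19452020, ACER3 at chr11:76860867-77026797 and ALDH3A2 at chr17:19648136-19677598. SGPP1 is on the minus strand and the others are on the plus strand, and all are protein-coding. Exons of SPHK2 share 246 bases with RPL18, 661 bases with DBP and 678 bases with an antisense RNA, all on the opposite strand and at most 11.3% of SPHK2 exon bases each. SPHK2 had 458 to 980 counts in a library, against 40 to 167 for DBP, 1 to 8 for the antisense RNA and 7354 to 9699 for RPL18. SPHK1 shares 59 exon bases with PRPSAP1, and ACER3 shares 35 with an antisense RNA that was at 0. SGPL1, SGPP1, ACER2 and ALDH3A2 share no exon base with another gene there. The strand setting of the counting is not given in the sources used here. Of 400 genes whose exons lie wholly under exons of an opposite-strand gene with at least 900 counts over the 9 libraries, 138 had no count in any library and 45 had at least 90 counts over the 9 libraries.

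The genes whose log2 CPM was most like that of each member over the 9 libraries were taken from protein-coding genes of at least 5 CPM, 10134 of them for most members. For SPHK1 these were DUSP9, a phosphatase of MAP kinases (Pearson r = 0.981), and the zinc-finger gene ZBTB22 (0.972). For SPHK2 they were GSTA4, a glutathione transferase (0.996), and ETNK2, an ethanolamine kinase (0.996), which was at 60.8 CPM in controls, 75.4 CPM at 20 µM and 31.7 CPM at 30 µM. For SGPL1 they were SLC10A3 (0.994) and GPT2, an alanine transaminase (0.992). For SGPP1 they were PIKFYVE, a lipid kinase of endosomes (0.999), and PIEZO2, a mechanosensitive channel (0.997). For ACER3 they were CHMP2B, of the ESCRT machinery (0.981), and TBC1D23 (0.980), and for ALDH3A2 the nuclear import gene IPO9 (0.998) and ARHGAP19 (0.997). For ACER2 they were the tRNA methyltransferase gene TRMT44 (0.934) and the co-chaperone gene ST13 (0.822), the weakest likeness of any member. These values are descriptions over libraries that share 3 groups, so any gene with the same order of group means scores highly.

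The other listed genes supply or use sphingosine, remove, move or sense S1P, or belong to the routes of the lyase products. They were listed by role, 37 in all, of which 28 were tested. The fatty aldehyde route gave 5 of the tested genes and the phosphoethanolamine list 6. At 20 µM 14 of the 28 rose and 2 fell against control (median log2 0.17), and at 30 µM 17 rose and 9 fell (median 0.45). Between the doses 16 rose and 8 fell (median 0.11). Over all genes tested, 34.2%, 60.8% and 57% were past the test in these 3 comparisons, with median log2 changes of 0.0087, -0.036 and -0.029, and the counts of the listed genes are read only beside these. Among the other ceramidases, ASAH1, the acid ceramidase of lysosomes, was at 130 ± 1.38 CPM in controls, 210.4 ± 4.03 CPM at 20 µM and 238 ± 3.53 CPM at 30 µM, a rise of 0.87 log2 units at 30 µM (adjusted p = 5.85e-21). ASAH2, the neutral ceramidase, fell to 3.96 ± 0.286 CPM at 30 µM, against 14.6 ± 0.541 CPM in controls (log2 -1.88, adjusted p = 1.51e-16). ASAH2 and its partial copy ASAH2B can share reads, so both are uncertain. ACER1, another alkaline ceramidase, had no counts. The genes of the acid ceramidase and ACER3 thus rose at 30 µM, while that of the neutral ceramidase fell, subject to the uncertainty of shared reads.

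Of the 3 phosphatases of the plasma membrane that can remove phosphate from S1P, PLPP1 and PLPP3 were tested and both rose at 30 µM against control, by 0.72 and 0.30 log2 units (adjusted p = 2.12e-09 and 7.50e-07). The rise of PLPP3 was 0.09 with library size alone and no longer past the test (adjusted p = 0.0736). Of 6 ceramide synthases, which put sphingosine back into ceramide, 5 were tested, and CERS2, CERS4, CERS5 and CERS6 rose at 30 µM by 0.26, 0.74, 0.59 and 0.52 log2 units. The rise of CERS2 was 0.05 with library size alone and not past the test (adjusted p = 0.234). CERS1 was not past the test, and CERS3 had at most 1 count in a library.

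Among carriers and exporters, APOM, the S1P carrier of high-density lipoprotein, was at 46.1 ± 1.18 CPM in controls, 68.6 ± 2.65 CPM at 20 µM and 85.0 ± 3.26 CPM at 30 µM, and rose by 0.88 log2 units at 30 µM (adjusted p = 2.09e-17). ALB, for albumin, the other carrier, fell by 0.32 log2 units at 20 µM and by 0.47 at 30 µM (adjusted p = 1.47e-09 and 2.99e-14). Of the ATP-driven transporters linked to S1P export, ABCC1 rose by 0.83 and ABCG2 by 0.52 log2 units at 30 µM, while ABCA1 rose by 0.18 at 20 µM and fell by 0.19 at 30 µM. SPNS2, the dedicated S1P exporter of endothelium, had at most 13 counts in a library, and MFSD2B, the exporter of red cells and platelets, was at 1.35 ± 0.450 CPM at 30 µM and 2.57 ± 0.676 CPM in controls (adjusted p = 0.00171), with overlapping libraries. Among the 5 S1P receptors, S1PR2 was the only member with enough counts. It was at 1.70 ± 0.207 CPM in controls, 1.92 ± 0.225 CPM at 20 µM and 3.09 ± 0.622 CPM at 30 µM, and rose at 30 µM by 0.87 log2 units (adjusted p = 0.000776). S1PR1, S1PR3, S1PR4 and S1PR5 had at most 5 counts in any library.

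**Figure D4:**
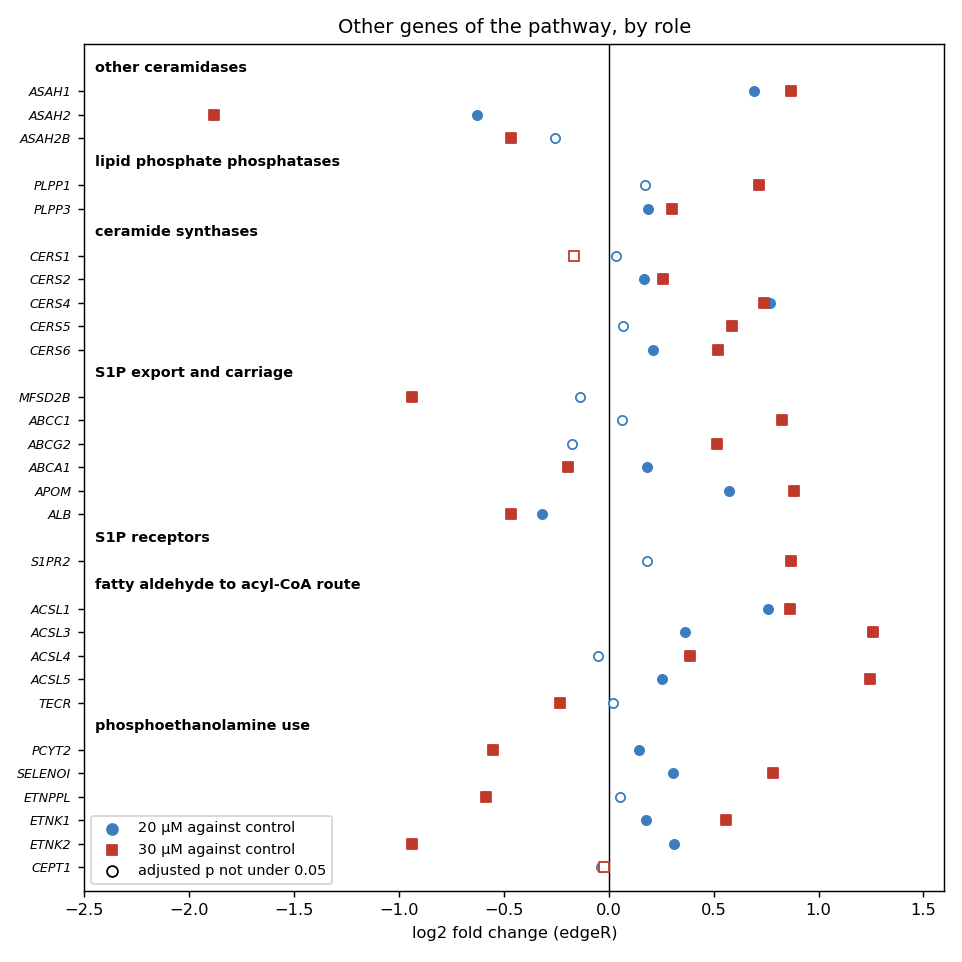
Log2 fold change (horizontal axis) of the 28 other genes tested, grouped by role, at 20 µM against control (circles) and 30 µM against control (squares). Filled symbols have an adjusted p under 0.05, and the 30 µM values run from -1.88 for ASAH2 to 1.26 for ACSL3.

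Downstream of the lyase, 4 of the 5 tested genes of the fatty aldehyde route rose at 30 µM against control and 1 fell. Over all genes tested, 29.5% were higher and 31.3% lower in that comparison. The long-chain acyl-CoA synthetases ACSL1, ACSL3, ACSL4 and ACSL5, which activate the acid made from the aldehyde, rose at 30 µM against control by 0.87, 1.26, 0.39 and 1.25 log2 units. TECR, the enoyl-CoA reductase that completes the conversion to palmitoyl-CoA, fell by 0.23 (adjusted p = 0.000113). For the other lyase product, phosphoethanolamine, PCYT2, which activates it for phospholipid synthesis, was at 347 ± 9.58 CPM in controls, 384 ± 14.3 CPM at 20 µM and 237 ± 10.6 CPM at 30 µM. PCYT2 rose by 0.14 log2 units at 20 µM (adjusted p = 0.00163) and fell by 0.55 at 30 µM (adjusted p = 5.17e-15). ETNK2 likewise rose by 0.31 and fell by 0.94, the same order of groups as SPHK2. SELENOI, the ethanolamine phosphotransferase, rose at both doses, by 0.30 and 0.78, and ETNPPL, which degrades phosphoethanolamine, fell at 30 µM by 0.58. ETNK1 rose by 0.56 at 30 µM, and its rise of 0.18 at 20 µM was not past the test without control replicate 1 (adjusted p = 0.068), without 20 µM replicate 1 (adjusted p = 0.0855) or with library size alone (adjusted p = 0.0662).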

How the data were processed

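RNA of untreated and eliglustat-treated HepG2 cells was sequenced. Each library has a deposited file of raw read counts by gene. Per the submitters' processing notes, the authors used FastQC, STAR 2.7.10a and HTSeq with hg38. Neither the strand setting nor the annotation version of the counting is given there. The labels name polyA RNA, while their protocol describes ribosomal depletion. The 5 closing HTSeq totals of each file served only as depth measures.

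Of 62703 identifiers, 62686 had a symbol and 58264 a position in GENCODE 29. Genes kept by filterByExpr (17623) were scaled by TMM. The quasi-likelihood test of edgeR 4.0.16 under R 4.3.3 used robust fitting and 1 mean for each group, with all 9 libraries sharing the dispersion. The biological coefficient of variation was 0.0529. SE is the log2 change divided by the square root of F. The test was also run on simulated data with 200 genes changed, evenly up and down and only in the 30 µM group. In the real data 60.8% of all genes were past the test at 30 µM against control. The simulation therefore cannot check the scaling under changes this wide, and no conclusion is drawn from it. Alternatives were other scalings, DESeq2 1.42.0, limma 3.58.1 voom, other filters, fewer genes or libraries and a replicate block. All members and every listed pathway gene could be named, with the 2 genes most like each member. The members and lists were chosen with earlier results of these data known.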

Additional observations from a re-analysis of the deposited data

How the results depend on the processing

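Each result was recomputed under 20 alternatives. Of 420 values for members, 415 kept their call, on the same side of the threshold and with no turn of direction past the test. The others were SPHK1 at 30 µM against control with library size alone (log2 -0.0627), SPHK1 between the doses with upper-quartile factors (-0.09) and library size alone (-0.21), SGPL1 between the doses with library size alone (0.05), and SGPL1 at 20 µM without 20 µM replicate 1 (0.12). A turn of direction with neither value past the test was not counted, as for ACER2 at 30 µM against control (-0.13 to 0.21). Of 1680 values for other pathway genes, 1640 kept their call by the same rule, and 28 lost and 7 gained the test. By that rule 5 turned direction, all between the doses with library size alone: ASAH1 (-0.016), PLPP3 (-0.0771), CERS2 (-0.10), ACSL1 (-0.086) and CEPT1 (-0.18). With 1 library left out, 4 to 5 members were past the test at 20 µM, 6 to 6 at 30 µM and 5 to 5 between the doses. Over all genes these counts were 5273 to 6135, 10061 to 10850 and 9276 to 10113, and over the listed pathway genes 16 to 16, 26 to 27 and 21 to 24.

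Same-numbered libraries of different groups deviated from their group means with correlations of -0.202 to 0.352, over 0.1 in 4 of 9 pairs. These values show no steady pairing by number, but with so few libraries in a group they cannot exclude it. With the replicate block 4, 6 and 5 members were past the test, as without it, and 5952, 10635 and 9955 of all genes. Control replicate 1, 20 µM replicate 3 and 30 µM replicate 3 deviated together (0.331 to 0.352), and without them 4, 6 and 5 members were past the test as well. Depth limits SGPP2 and ACER2 most.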
